A study of Mus musculus with 53 samples.

Results

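The paraventricular nucleus of the hypothalamus (PVN) of chow-fed male mice was compared between obese Nnat+/-p mice and wild type (Nnat+/+) mice. The members are the 7 libraries that the labels place in these groups, out of 53 libraries in the series. The wild type group has 3 libraries (13, 14 and 15, numbered as in the labels) from mice of 33.5, 31.4 and 32.45 g. The obese group has 4 libraries (16, 17, 20 and 21) from mice of 38.8, 46.5, 41.66 and 41.17 g. All mice were C57BL/6 males, aged 13 to 14 weeks by the labels and fed chow. Nnat+/-p mice carry a null Nnat allele from the father in every cell, and Nnat is imprinted and read only from the paternal copy, so the change is not limited to the PVN. Obesity and genotype come together in this contrast, and their parts in a difference cannot be told apart from it. The 3 non-obese Nnat+/-p libraries of the same nucleus, sex and diet (18, 19 and 22, from mice of 33.6, 34.3 and 27.4 g) are given as values where they help. The nucleus was cut by laser from stained sections, and each value is the RNA of a small block of tissue. Fewer cells of a type and less RNA per cell cannot be told apart in such samples.

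The PVN holds neurons that make vasopressin (Avp), oxytocin (Oxt), corticotropin-releasing hormone (Crh) and thyrotropin-releasing hormone (Trh), and its development depends on the transcription factor Sim1. It receives signals from the arcuate nucleus (ARC) through melanocortin receptors, and from the hindbrain through glucagon-like peptide 1, and these signals reduce feeding. Neuropeptides are cut from larger precursors inside secretory granules before release.

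The 7 libraries held 3192351 to 6139659 counts each, and the mitochondrial ribosomal RNA mt-Rnr2 took the largest share, 18.2% to 25.2%. Nnat, the deleted gene, had 380, 467 and 368 CPM (read counts scaled by library total and library composition) in wild type mice and 5.39, 2.41, 15.8 and 5.41 CPM in obese Nnat+/-p mice. The genotype labels therefore held in all 7 libraries.

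Library 15, labelled wild type PVN, stood apart. Avp, Oxt and Sim1 together had 7 counts in it, or 1.14 CPM without composition scaling, against 621 to 1502 CPM in the other 6 libraries compared. Markers of the ARC and the neighbouring ventromedial nucleus (Pomc, Agrp, Npy, Nr5a1 and Fezf1) summed to 221 CPM in library 15 and to 8.93 to 17.0 CPM in those 6. In the 2 other wild type libraries labelled ARC the same 5 genes summed to 82.1 and 115 CPM. The ARC library labelled with the same body weight as library 15 (library 35, 32.45 g) had 151 counts of Avp, Oxt and Sim1 and none of the 5 ARC and ventromedial genes, in a total of 271324 counts. Library 15 is written here as the library labelled wild type PVN, and results are given with and without it.

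**Figure D1:**
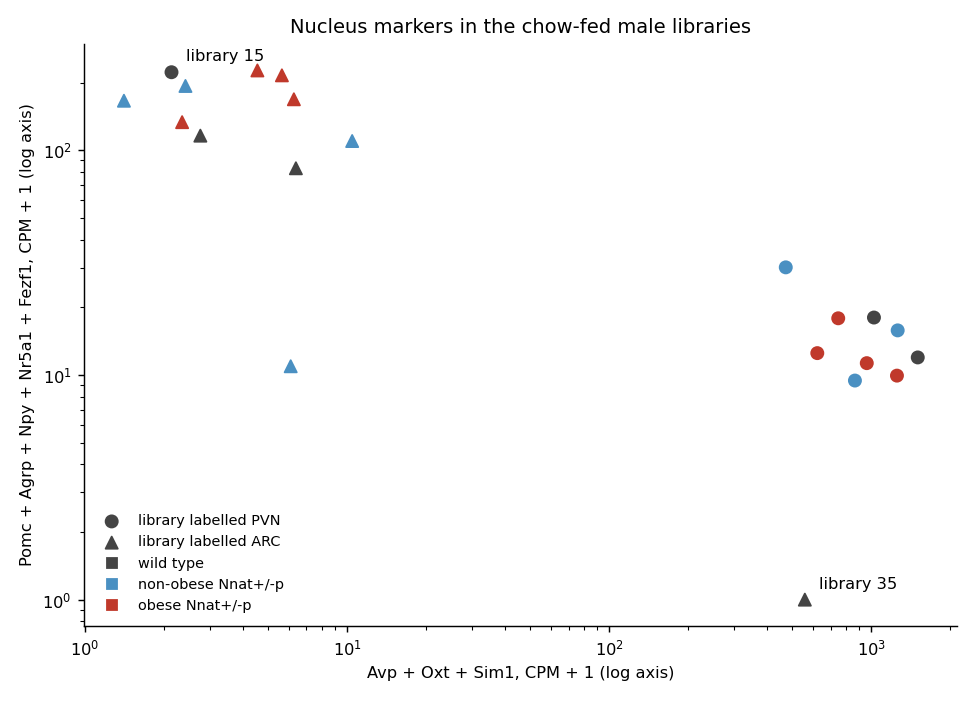
Summed PVN markers (horizontal, CPM + 1, log axis) against summed ARC and ventromedial markers (vertical, CPM + 1, log axis) in each chow-fed male library, with circles for libraries labelled PVN, triangles for those labelled ARC and colours for the 3 groups. Library 15 lies among the ARC libraries at 1.14 and 221 CPM, and library 35 lies on the PVN side at 557 and 0 CPM.

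Of 15618 genes tested with edgeR's quasi-likelihood test, 4 had a Benjamini-Hochberg adjusted p under 0.25 (0.0256% of genes). Glp1r and Vgf rose in obese Nnat+/-p mice, and Nnat and Nrgn fell. An unadjusted p under 0.05 was found for 549 genes (3.52%), 255 higher and 294 lower, where 781 would be counted if p-values were uniform. In 361 genes (2.31%) every obese library lay above every wild type library, and in 342 (2.19%) every one lay below, together 4.5% of genes. The median log2 fold change over all tested genes was -0.01. Without library 15, 6 genes were called of 17871 tested (0.0336%), and 2 of the 4 above, Glp1r and Nnat, were among them. Without it, 707 genes (3.96%) had an unadjusted p under 0.05, 381 higher (2.13%) and 326 lower (1.82%). The other 4 called without it were Plekhh2, Zfp648 and AA474408 (higher) and Thbs3 (lower), named here after their values were seen. Their values by library are not given here. Plekhh2 also took the largest share of counts, 27.9%, in library 7, a female PVN library not used for its low total. DESeq2 called 38 genes (0.264% of those given an adjusted p) with all libraries and 21 (0.155%) without library 15, and Glp1r, Vgf and Nnat were called by DESeq2 in both cases.

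**Figure D2:**
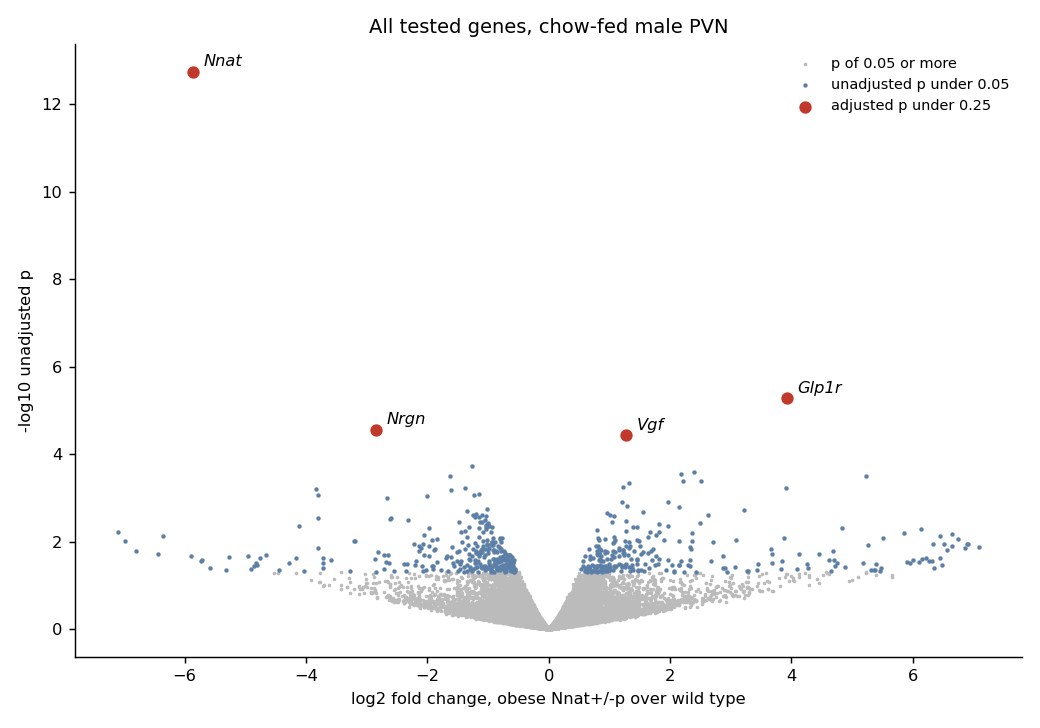
Each point is 1 of 15618 tested genes, with the log2 fold change of obese Nnat+/-p over wild type on the horizontal axis and the -log10 unadjusted p on the vertical axis. The 4 genes with an adjusted p under 0.25 are labelled, Nnat and Nrgn on the left and Glp1r and Vgf on the right.

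Glp1r encodes the receptor for glucagon-like peptide 1, a peptide that reduces food intake. On the plus strand of chromosome 17 (GRCm38) it runs from position 30901817 to position 30940791. The wild type libraries 13, 14 and 15 had 1.55, 0.216 and 2.21 CPM, which are 6, 1 and 12 reads. The obese libraries 16, 17, 20 and 21 had 27.4, 19.1, 15.2 and 21.1 CPM, which are 132, 103, 45 and 74 reads. All 4 obese libraries were above all wild type libraries, with means of 20.7 ± 5.08 CPM (SD, n = 4) and 1.32 ± 1.01 CPM (SD, n = 3). The log2 fold change was 3.92 ± 0.68 (SE), with an adjusted p of 0.0406 in edgeR's quasi-likelihood test. Without library 15 it was 4.58 ± 0.84 (SE), with an edgeR adjusted p of 0.0236. The 3 non-obese Nnat+/-p libraries had 9.11, 6.74 and 10.2 CPM, between the other groups and overlapping neither.

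Vgf encodes a granule protein of neurons that is cut into several peptides with effects on energy balance. On chromosome 5 it runs from position 137026392 to position 137033351. It had 64.5, 110 and 90.2 CPM in wild type mice and 176, 220, 212 and 248 CPM in obese mice, so that the groups did not overlap. The log2 fold change was 1.28 ± 0.25 (SE), with an edgeR adjusted p of 0.143. Without library 15 the log2 fold change was 1.30 ± 0.31 (SE) and the edgeR adjusted p was 0.252, just past the threshold. The non-obese Nnat+/-p libraries had 138, 148 and 185 CPM.

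Nrgn encodes neurogranin, a calmodulin-binding protein abundant in forebrain excitatory neurons. On chromosome 9 it runs from position 37544492 to position 37552904. It had 17.3, 50.6 and 255 CPM in wild type mice, the highest in library 15, and 8.08, 22.6, 15.8 and 13.4 CPM in obese mice. The groups overlapped. The log2 fold change of -2.84 ± 0.55 (SE), with an edgeR adjusted p of 0.143, became -1.17 ± 0.51 (SE) without library 15, with an edgeR adjusted p of 1. The call was also lost without library 16, 17, 20 or 21, with edgeR adjusted p-values of 0.641, 0.367, 0.329 and 0.608.

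**Figure D3:**
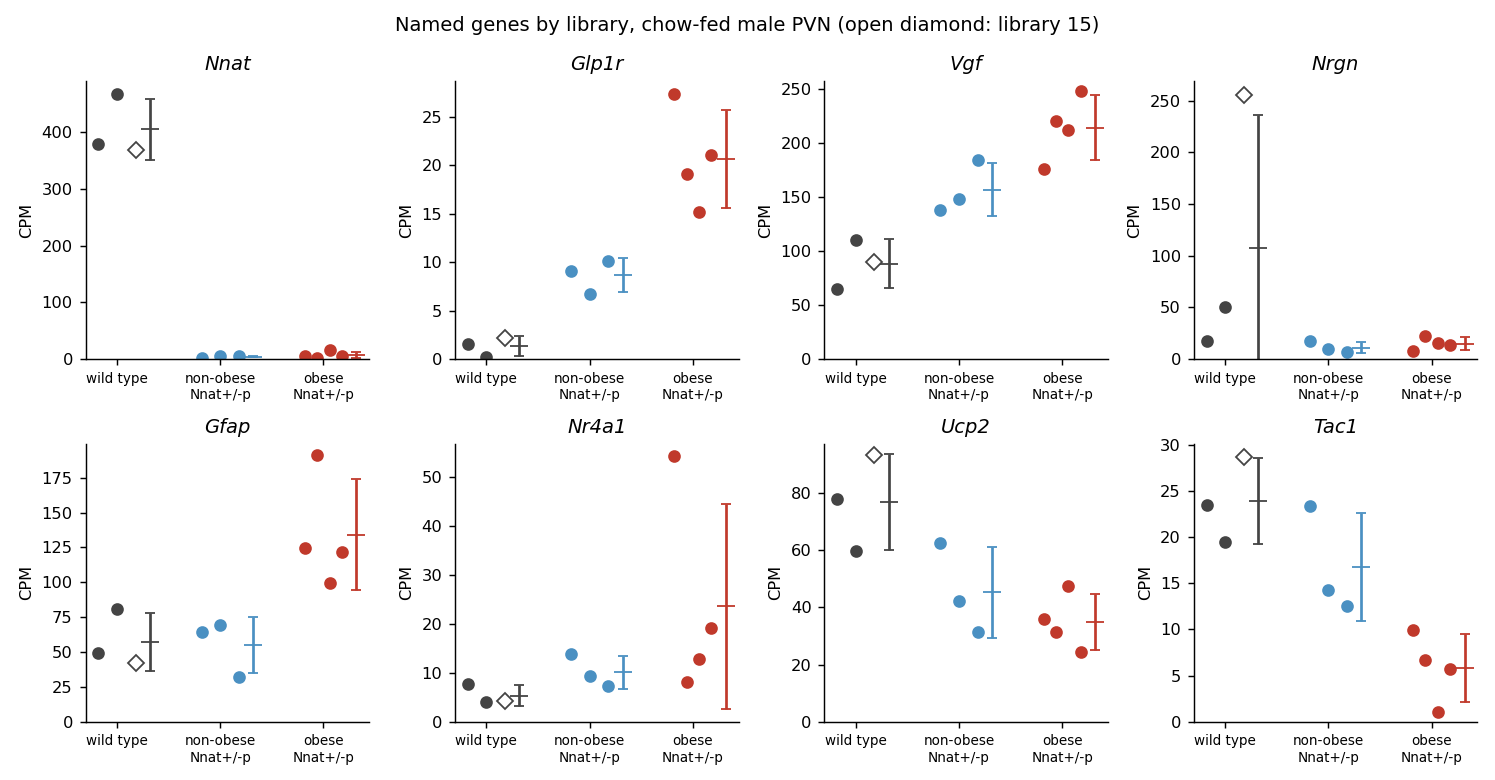
CPM of 8 genes in each wild type (black), non-obese Nnat+/-p (blue) and obese Nnat+/-p (red) library, with the mean and SD beside the points and library 15 as an open diamond. For Glp1r and Vgf the obese libraries lie above all wild type libraries, and for Nrgn library 15 at 255 CPM lies far above the rest.

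The genes below did not pass the adjusted threshold in edgeR and are given by their values. Most are the protein-coding genes with the smallest edgeR p-values, at most 12 per direction with the called genes included. These had an unadjusted p under 0.01, groups that did not overlap and an unadjusted p under 0.05 without library 15. The rest were called by DESeq2 with and without library 15. The choice therefore used these same values, and the separation of their groups is not a finding.

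Among those higher in obese mice, Gfap, the intermediate filament of astrocytes, had 49.5, 80.9 and 41.8 CPM in wild type mice and 124, 191, 99.4 and 122 CPM in obese mice (log2 fold change 1.23 ± 0.31, SE). The non-obese Nnat+/-p libraries, at 64.0, 69.1 and 32.3 CPM, did not reach the obese range. Rgs10, a regulator of G protein signalling, had 20.6 to 37.4 CPM in wild type and 41.9 to 105 CPM in obese mice. S100a10, the annexin A2 partner p11, had 10.3, 4.76 and 2.76 CPM in wild type and 40.6, 23.0, 26.6 and 16.5 CPM in obese mice. Yes1, a kinase of the Src family, had 11.7 to 15.3 CPM against 26.1 to 41.6 CPM. Nr4a1, an orphan nuclear receptor switched on by neuronal activity, had 7.74, 4.11 and 4.24 CPM in wild type mice and 54.3, 8.16, 12.8 and 19.1 CPM in obese mice. Library 16 had the highest Nr4a1, and without it the log2 fold change was 1.31 in place of 2.14. Btaf1, which removes the TATA-binding protein from DNA, had 18.8 to 32.0 CPM against 41.5 to 69.2 CPM. Unc50, Lysmd3, Vwc2l and Ska2 lay at or below 5.53 CPM in every wild type library and between 9.39 and 31.5 CPM in every obese library. Hcls1, a cortactin relative of blood cells and microglia, had 0 to 0.433 CPM in wild type and 2.36 to 16.6 CPM in obese mice. Its reads were so few that no fold is given. Of 13 microglia markers tested, none was higher and 1 was lower at an unadjusted edgeR p under 0.05. Their median log2 fold change was -0.22 (-0.35 without library 15). The microglia markers summed to 212, 244 and 200.5 CPM in wild type and 134, 216, 140 and 214 CPM in obese mice.

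Among those lower in obese mice, Tac1, the precursor of substance P and neurokinin A, had 23.5, 19.5 and 28.7 CPM in wild type mice. In obese mice it had 9.95, 6.68, 1.01 and 5.69 CPM (unadjusted edgeR p of 0.000922 in the fit across all genes), and the non-obese Nnat+/-p libraries had 23.4, 14.3 and 12.6 CPM. Ucp2, a mitochondrial carrier of the uncoupling protein family, had 77.9, 59.7 and 93.2 CPM in wild type and 36.0, 31.5, 47.5 and 24.2 CPM in obese mice. Crim1, a membrane protein that binds bone morphogenetic proteins, had 57.5 to 103 CPM against 22.6 to 36.4 CPM. Cdh4, a cadherin of neurons, had 29.4 to 85.3 CPM against 17.4 to 23.6 CPM. Ptpn13, a tyrosine phosphatase, had 36.5 to 41.3 CPM against 13.9 to 20.9 CPM. Emc8, a subunit of the complex that inserts proteins into the endoplasmic reticulum membrane, had 37.2 to 38.9 CPM against 12.1 to 24.8 CPM. Cryz, Ccdc65, Ethe1 and R3hdm4 were also in this set.

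Promoter sequence was read for the 27 genes called or chosen by the rules above, extended to these genes after their values were seen. The letters searched were the cyclic AMP response element (TGACGTCA), through which neuronal activity and cyclic AMP are known to switch on many genes, and its core (TGACG, or CGTCA on the other strand), which the full element contains. In 32851 mouse promoters from RefSeq (GRCm38.p6), taken as the 250 bases before the start, the full element was in 1.55% and the core in 17.8%. Of the 27 genes, 22 had an entry, with 24 promoters. The core was in 5 of the 24 promoters, those of Btaf1, Lysmd3, Nr4a1, Tac1 and Ucp2, and the full element was in 1, that of Btaf1. The window of Nr4a1, at chr15:101266596-101266845 on the plus strand, held 4 cores, and that of Glp1r, at chr17:30901617-30901866 on the plus strand, held none. Both are shown because Glp1r had the smallest p after Nnat and Nr4a1 held the most cores. The RefSeq start of Glp1r used for this window lies inside the gene as GENCODE gives it above, so the last 50 bases of the window are in that gene. Capitals mark the core, and letters run 5′ to 3′.
Nr4a1: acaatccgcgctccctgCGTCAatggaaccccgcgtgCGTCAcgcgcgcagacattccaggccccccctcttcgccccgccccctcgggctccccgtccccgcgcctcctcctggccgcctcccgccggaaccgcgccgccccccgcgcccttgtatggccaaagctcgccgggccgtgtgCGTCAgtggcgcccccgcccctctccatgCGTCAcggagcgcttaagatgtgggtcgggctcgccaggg
Glp1r: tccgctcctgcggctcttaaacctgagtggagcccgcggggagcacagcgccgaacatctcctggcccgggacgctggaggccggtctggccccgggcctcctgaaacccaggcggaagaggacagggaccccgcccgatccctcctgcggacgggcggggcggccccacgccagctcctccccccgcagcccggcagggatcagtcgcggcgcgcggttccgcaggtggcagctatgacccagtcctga
A match describes the letters only, and whether a factor binds there was not measured.

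The 36 gene lists held 564 genes, of which 510 were tested. A member is written as higher or lower where its unadjusted p was under 0.05. Over all tested genes 1.63% were higher and 1.88% lower, and without library 15 these shares were 2.13% and 1.82%. Of 12 PVN neuropeptide and hormone genes tested, 1 was higher (Penk, the enkephalin precursor) and 4 were lower (Tac1, Adcyap1, Sst and Gal), with a median log2 fold change of -0.16. Without library 15 none was higher and 2 were lower, Tac1 and Oxt. Library 15 was singled out partly for its near lack of Oxt reads, so the values of Oxt without it are a description and not a test. Oxt had 748, 655 and 0.552 CPM in wild type and 400, 591, 227 and 324 CPM in obese mice, and its fitted log2 fold change moved from -0.28 to -0.84 without library 15. Avp had 351, 265 and 0.184 CPM against 298, 474, 384 and 421 CPM, and Crh had 68.1, 81.5 and 0.921 CPM against 78.5, 54.3, 31.7 and 64.3 CPM. Apart from library 15, both genes overlapped between the groups. None of 8 PVN transcription factors had a p under 0.05 with or without library 15.

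Of 21 receptors of appetite and energy balance, Glp1r was higher and Cnr1, the cannabinoid receptor, was lower. Cnr1 had an unadjusted edgeR p of 0.707 without library 15, where 2 of the 21 were higher and none was lower. Mc4r, the melanocortin receptor of the PVN, had 3.87, 8.44 and 3.13 CPM in wild type and 8.49, 13.5, 5.05 and 1.99 CPM in obese mice, so that the wild type range lay inside the obese range. Of 20 granule and prohormone processing genes, Vgf alone was under 0.05 with all 7 libraries, and the median was 0.00. Without library 15, 2 of the 20 were higher and none was lower, and the median was 0.13. The convertase Pcsk2 had 140 to 176 CPM against 131 to 229 CPM. None of 24 leptin and insulin signalling genes, none of 17 glucocorticoid genes, none of 19 signal peptidase and translocon genes and none of 30 nuclear encoded respiratory chain genes had a p under 0.05 in the comparison of all 7 libraries. Without library 15, the respiratory chain genes Sdhc and Sdhd and the signal recognition particle gene Srp14 were higher, and none of the other members of these 4 lists was under 0.05.

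Of 22 immediate early and activity genes, Nr4a1 and Jun were higher, Nptx2 was lower, and the median log2 fold change was 0.40. Of these, Nr4a1 kept a p under 0.05 without library 15, and the median was then 0.24. Fos had 11.9, 30.3 and 16.2 CPM in wild type and 49.3, 13.5, 35.0 and 34.5 CPM in obese mice, with an unadjusted edgeR p of 0.126 in the fit across all genes. Of 33 imprinted genes tested, Peg10, a retrotransposon-derived gene read from the paternal allele, was higher, and Nnat and Ddc were lower. Without library 15, 3 of the 33 were higher and 1 was lower. Peg10 had 229, 188 and 220 CPM in wild type and 338, 339, 412 and 384 CPM in obese mice, without overlap. Blcap, whose gene spans Nnat on the other strand, had 67.6 to 105 CPM against 68.8 to 80.8 CPM.

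Of 27 calcium and calmodulin genes tested, 5 were lower and none higher, and of 29 glutamate and GABA genes 6 were lower and 1 (Grik1) higher. Without library 15, 3 of the calcium and calmodulin genes (Nrgn, Camk2a and Camk4) and 2 of the glutamate and GABA genes (Slc17a7 and Gabra2) were lower, and Grik1 was still higher. The medians of -0.26 and -0.25 became -0.03 and 0.04. The genes lower included Camk2a, Itpr1, Ppp3ca, Gabra2, Gabra5, Grm5 and Gria1. Of the 9 ARC and ventromedial markers 6 were tested, 3 were lower (Pomc, Nr5a1 and Fezf1), and none had a p under 0.05 without library 15. Pomc had 0.773, 4.54 and 111 CPM in wild type and 2.28, 1.48, 0.337 and 6.83 CPM in obese mice. Summed over the list, the ARC and ventromedial markers had 15.2, 26.8 and 312 CPM in the wild type libraries and 10.4 to 32.4 CPM in the obese libraries. A further marker, Slc17a7, the vesicular glutamate transporter of cortex and thalamus, had 6.19, 40.2 and 0 CPM in the wild type libraries 13, 14 and 15 and 0.185 to 2.85 CPM in the obese libraries, so that 2 of the 3 wild type libraries lay above the obese range.

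Of 27 cyclic AMP signalling genes, Crtc1, a coactivator of the factor CREB, and the phosphodiesterase Pde1a were lower and none was higher, with a median log2 fold change of -0.22 (-0.11 without library 15). Crtc1 had 59.6, 64.0 and 138 CPM in wild type and 25.3, 54.2, 43.8 and 47.3 CPM in obese mice, and its unadjusted edgeR p was 0.115 without library 15 in the fit across all genes. Of 13 thyroid hormone genes, the nuclear receptor Rxra and the corepressor Hr were higher, and Hr kept a p under 0.05 without library 15. The log2 fold change was below 0 in 8 of the 13, and the median was -0.13 (-0.01 without library 15). Hr had 12.4, 14.5 and 19.5 CPM in wild type and 33.1, 24.1, 27.3 and 21.1 CPM in obese mice, without overlap. Of 22 genes of endoplasmic reticulum stress, Herpud1, which takes part in the removal of misfolded proteins, was lower. It had 31.7 to 43.6 CPM against 13.1 to 35.0 CPM. Without library 15, 1 of the 22 was higher and 1 was lower. Of 20 genes of uncoupling and fatty acid oxidation, Ucp2 alone was under 0.05. Cpt1a, which brings fatty acids into mitochondria, had 11.8 to 19.9 CPM against 10.8 to 20.9 CPM. None of 11 genes of Trim28 and imprint maintenance was under 0.05, and Trim28 itself, a repressor that keeps imprints, had 39.7, 71.8 and 76.8 CPM in wild type and 48.7, 55.5, 79.2 and 74.6 CPM in obese mice. Of 12 general neuron markers, Rbfox3 and Syt1 were lower and none was higher, with a median of -0.22 (-0.11 without library 15, where 1 was lower). Of 10 forebrain excitatory markers tested, 4 were lower (Nrgn, Camk2a, Slc17a7 and Lamp5), and 3 of these, all but Lamp5, kept a p under 0.05 without library 15. The log2 fold change was above 0 in 5 of the 10 and the median was 0.02 (-0.30 without library 15). Tbr1, a transcription factor of cortical neurons, had 5.42, 3.46 and 5.16 CPM in wild type and 5.59, 5.56, 16.2 and 13.7 CPM in obese mice, without overlap. The list summed to 198, 553 and 716 CPM in the wild type libraries and 159 to 271 CPM in the obese libraries, and Camk2a and Nrgn gave 427 and 255 CPM of the sum in library 15.

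**Figure D4:**
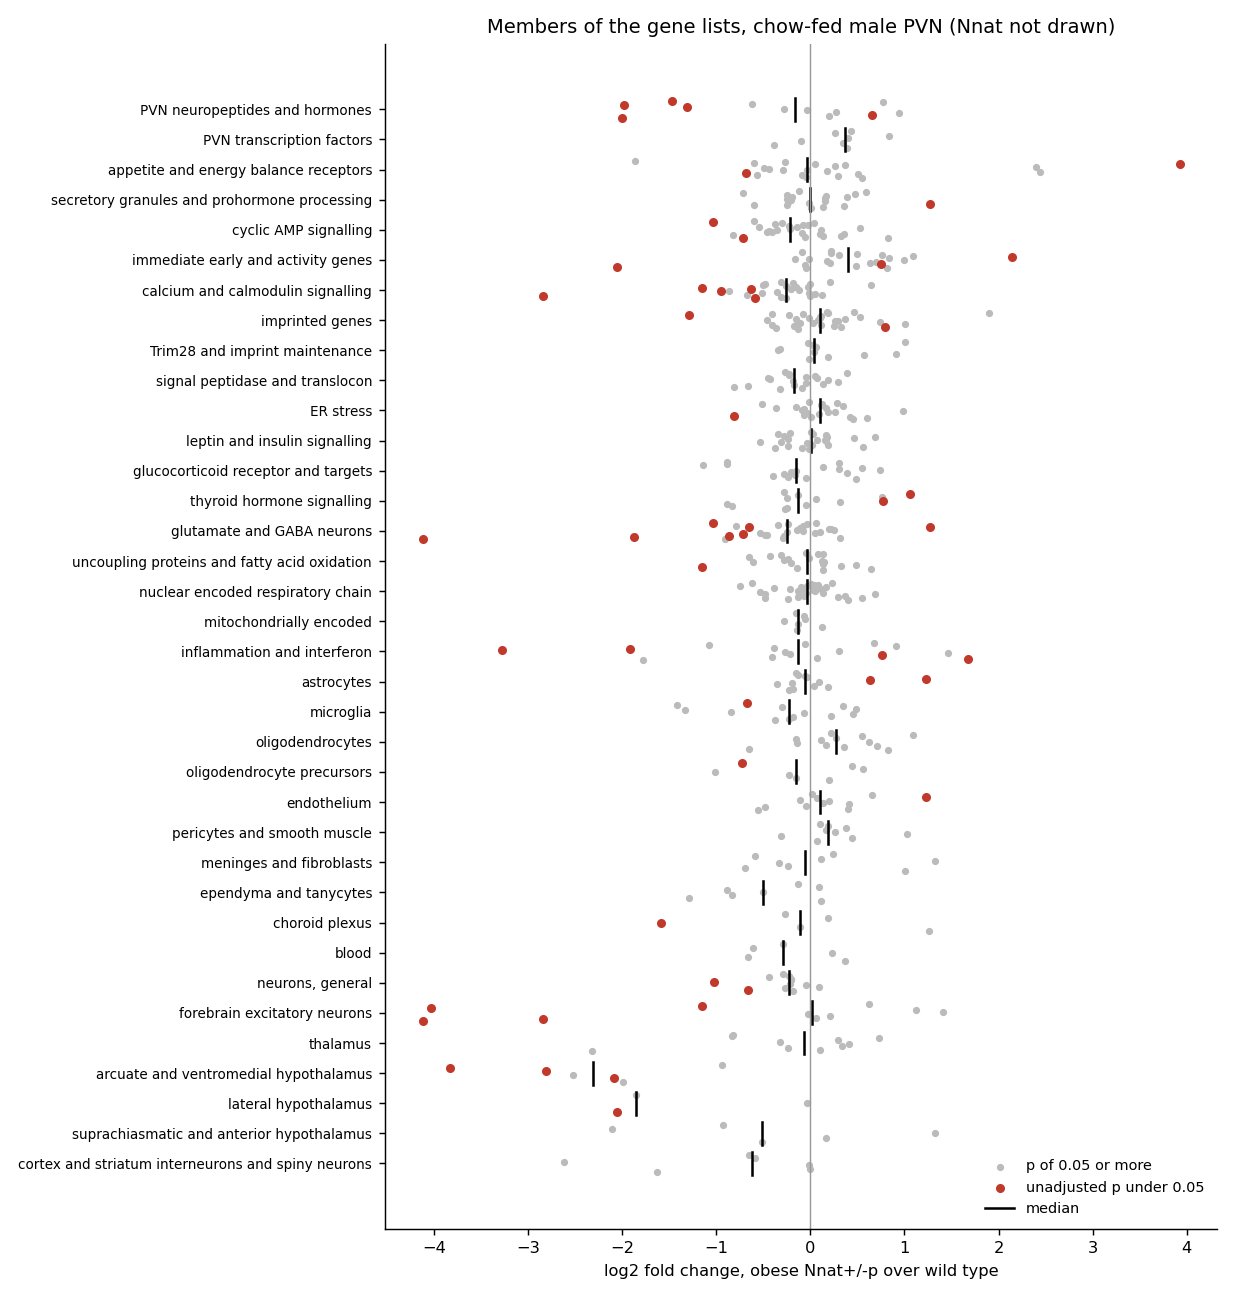
Log2 fold change of obese Nnat+/-p over wild type for the tested members of each list (1 row per list), with red for an unadjusted p under 0.05, grey for others and a black bar for the median. The medians lie near 0 for most lists, and that of the arcuate and ventromedial markers lies at -2.30, which was 0.19 without library 15.

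Of 13 astrocyte markers, Gfap and Aqp4, the water channel of astrocyte endfeet, were higher and none was lower, and the median was -0.06. Aqp4 had 44.9, 70.5 and 72.4 CPM in wild type and 160, 92.0, 65.7 and 70.3 CPM in obese mice. It was highest in library 16, and the groups overlapped. Summed astrocyte markers had 1873, 2506 and 2430 CPM in wild type and 2066, 2848, 1738 and 2243 CPM in obese mice, and the groups overlapped. Aldh1l1, another astrocyte marker, had 21.4 to 30.1 CPM against 12.8 to 35.6 CPM. Of 16 inflammation and interferon genes tested, those under 0.05 included C4b, a complement component, and B2m, which were higher, and Tlr2, which was lower. C4b had 12.1, 12.1 and 1.29 CPM in wild type and 19.5, 30.2, 36.4 and 22.2 CPM in obese mice. Of 12 endothelial markers, Pecam1 alone was under 0.05, at 6.71 to 12.7 CPM against 17.2 to 37.3 CPM. None of 13 oligodendrocyte markers was under 0.05. The log2 fold change was above 0 in 10 of the 13, and in 7649 of all 15618 tested genes. The median of the oligodendrocyte markers was 0.27 and became 0.63 without library 15. They summed to 360, 541 and 894 CPM in wild type and 571, 872, 485 and 803 CPM in obese mice, highest in library 15. Mbp, a myelin protein, had a log2 fold change of 0.74 with an unadjusted edgeR p of 0.0268 when library 15 was left out. Whether the makeup of the captured tissue had a part in these differences was not tested.

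**Figure D5:**
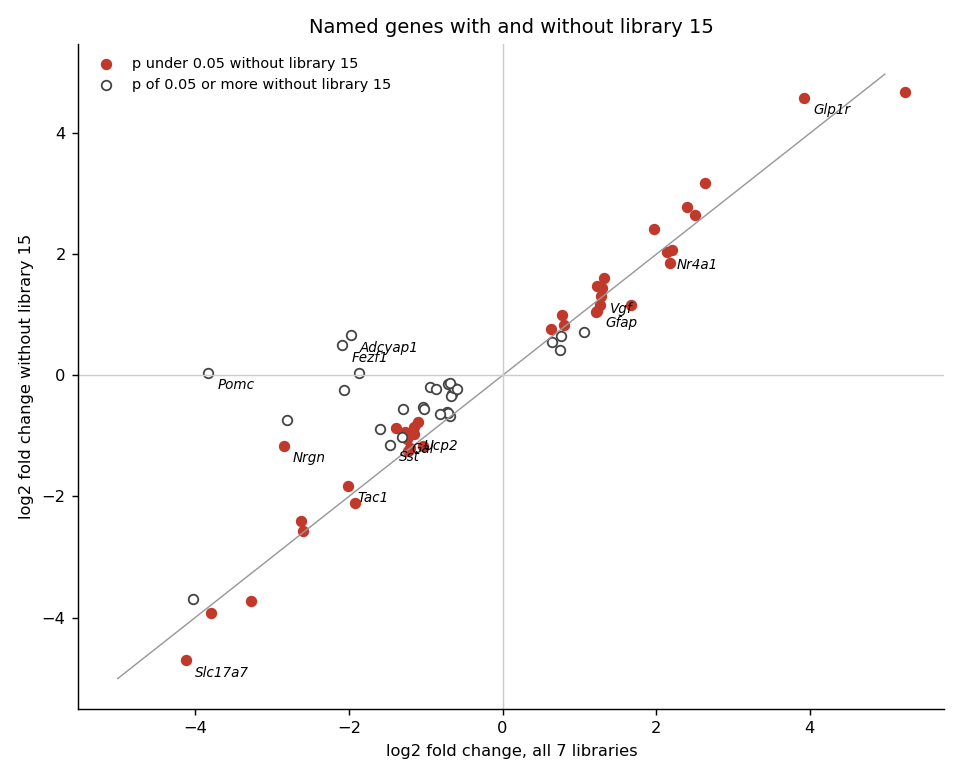
Log2 fold change of 66 named genes beyond Nnat with all 7 libraries (horizontal) and without library 15 (vertical), with filled points for an unadjusted p under 0.05 without it and open points for the others. Of the 66 genes 37 are filled, among them Nrgn, which moved from -2.84 to -1.17, and 29 are open, among them Pomc, Adcyap1, Gabra5 and Fezf1, the 4 that cross 0.

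Glp1r, Vgf, Gfap, Nr4a1 and Peg10 were then read in the PVN of females. Of these, only Glp1r and Gfap are given in the ARC, and only Glp1r and Vgf in males on a high-fat diet. The 26 genes named by the rules beyond Nnat were chosen by their male PVN values. How many of all tested genes kept their sign elsewhere was not counted. In the PVN of chow-fed females (4 wild type, 3 obese), 21 of the 26 genes had the same sign. Of these, Vgf, Gfap and Nr4a1 had an unadjusted edgeR p under 0.05, as 3.18% of all genes tested there did, and 2 genes (0.0129%) had an adjusted p under 0.25. Vgf had 140 to 176 CPM in wild type females and 381 to 578 CPM in obese females (log2 fold change 1.69 ± 0.40, SE). Gfap had 59.6 to 109 CPM against 158 to 225 CPM, and Nr4a1 had 0.369 to 21.4 CPM against 32.2 to 94.6 CPM. Peg10 had 259 to 478 CPM against 507 to 849 CPM. Glp1r had 3.69 to 25.5 CPM against 18.2 to 41.0 CPM, with an overlap between the groups and a log2 fold change of 0.96 ± 0.71 (SE).

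In the ARC of chow-fed males (2 wild type, 4 obese), taken from the same mice by their weights, 18 of 26 genes had the same sign and Gfap had an unadjusted edgeR p under 0.05, as 2.59% of all genes there did, with 3 genes (0.0205%) called. Gfap had 30.9 to 34.8 CPM in wild type and 184 to 324 CPM in obese mice. Glp1r was low there, at 0.807 to 1.72 CPM against 1.18 to 4.86 CPM.

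Males on a high-fat diet had labelled weights of 37.4 to 42.9 g (6 wild type mice) and 38.2 to 43.9 g (3 Nnat+/-p mice). The weights of 42.9 and 43.9 g carry the opposite genotypes in the ARC labels (libraries 51 and 44) to those in the PVN labels (libraries 24 and 30). The PVN labels were used, and which labels are right was not tested. In their PVN, scaled together with the chow-fed males, Glp1r had 3.75 to 14.5 CPM in wild type and 9.93 to 14.6 CPM in Nnat+/-p mice. On that scale it had 0.213 to 2.18 CPM in wild type and 14.7 to 26.8 CPM in obese chow-fed males. Wild type mice on the high-fat diet thus lay above wild type mice on chow and below the obese mice on chow, a difference that was not tested. Vgf had 89.1 to 134 CPM in the high-fat wild type mice, within or above the chow-fed wild type range of 62.8 to 109 CPM and below the 172 to 242 CPM of obese mice.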

How the data were processed

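RNA of laser-captured PVN was sequenced by the authors as single-end reads from low-input total RNA, and the deposited values are whole-number read counts per gene without normalization. The submitters' processing notes name STAR 2.5.0a and GRCm38, and the counting tool, annotation release and strand setting are not given in the sources used here. Groups were taken from the labels. Of 53379 gene identifiers, 53274 were matched to GENCODE symbols. The 7 libraries and the 3 non-obese Nnat+/-p libraries made 1 fit in R 4.3.3 with edgeR 4.0.16: filterByExpr (minimum count 10), TMM factors, the quasi-likelihood test, and a call at a Benjamini-Hochberg adjusted p under 0.25. Where genes overlap on opposite strands, as Nnat and Blcap do, some reads may go to the wrong gene if counting ignored strand. In these libraries Nnat was far lower in obese mice, and Blcap overlapped between the groups. The fit was tested on simulated data. The labels do not say that mice of a group came from separate litters, and p-values measure the spread between these libraries. No 2 replicates agreed within sampling noise.

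Named genes were the called genes, at most 12 protein-coding genes per direction with p under 0.01, no overlap and p under 0.05 without library 15, genes that DESeq2 called with and without library 15, and in each list the members under 0.05 or, if fewer than 3, its first members. Genes named outside this were chosen after their values were seen. The members and lists were chosen with earlier results of these data known. Alternatives were DESeq2 1.42.0, limma 3.58.1 (voom), other scaling and filters, and each library left out. Of the 53 libraries, 3 under 25% of their table's median total were not used. The 1 library whose labels conflict on the nucleus was left ungrouped. Results for some of the genes that these rules chose are not reported here.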

Additional observations from a re-analysis of the deposited data

Results flagged for a closer look

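A library that no comparison used, ARC library 35, held 151 counts of Avp, Oxt and Sim1 in 271324 counts, or 557 CPM without composition scaling, where the other chow-fed male ARC libraries held 0.409 to 9.46 CPM. It carries the same labelled weight as PVN library 15.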

How the results depend on the processing

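No paired analysis was possible because the labels used here do not give the litter of each mouse. The study describes its wild type mice as littermates of the Nnat+/-p mice. The replicate numbers, from 1 to 53, are sample numbers and say nothing about pairing. The 4 called genes became 2 at an adjusted p under 0.05, 38 with DESeq2 (27 higher, 11 lower, out of 14389 with an adjusted p), 2 with limma voom, 43 when every gene with a total count over 1 was tested (18 higher, 25 lower), 2 when only the 2 groups were fitted and 21 with DESeq2 without library 15. With 1 library left out the count ran from 2 to 21, the highest without library 13, 12 without library 14, and 2 without library 17 or 21. The 549 of 15618 genes with an unadjusted p under 0.05 became 1136 of 34476 with DESeq2 and 1220 of 34476 without the filter on low counts. With DESeq2 without library 15 they were 1070 of 33938. With 1 library left out they ran from 513 of 15383 (without library 21) to 825 of 17120 (without library 13). The number of genes fitted did not order these counts. With limma voom they were 629 of 15618, and without library 15 they were 707 of 17871. The female PVN had 2 called genes with edgeR and 149 with DESeq2, and the male ARC had 3 with either. With 1 library left out, the log2 fold change ran from -4.70 to 0.0387 in Pomc, from -2.49 to 0.661 in Adcyap1, from -2.37 to 0.0435 in Gabra5 and from -2.67 to 0.496 in Fezf1, each positive without library 15 alone. Without library 15 these were 0.0277, 0.652, 0.0412 and 0.504 with DESeq2, and 0.0396, 0.661, 0.0449 and 0.498 with only the 2 groups fitted. Nnat was called under every alternative run. Glp1r missed the threshold with limma voom alone, and its edgeR adjusted p ran from 0.0236 to 0.224 with 1 library left out. Vgf missed it without library 13, 15, 17 or 21 and when only the 2 groups were fitted, with edgeR adjusted p-values up to 0.608. Nrgn missed it without library 15, 16, 17, 20 or 21, with limma voom (adjusted p 0.964), with a robust prior in edgeR (adjusted p 1) and when only the 2 groups were fitted (edgeR adjusted p 0.386). The cause of these changes was not tested, apart from library 15 being absent by construction. Few mice per group and low read numbers limit genes such as Hcls1 and Glp1r in wild type mice.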
